A study of Mus musculus with 36 samples.

Results

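The mammary gland of the mouse lies within the inguinal fat depot, so a piece of that depot from a female can hold milk-secreting epithelium beside adipocytes. This account follows 10 genes of that epithelium, taken by symbol from a table of 43346 genes: the milk protein genes Wap, Csn2, Csn1s1, Csn3 and Lalba, the transcription factor gene Elf5, and the epithelial genes Krt8, Krt18, Epcam and Krt5. All 10 were in the table under 1 identifier each, and all 10 passed the filter on low counts in fat, which a gene that is high in females alone can pass through them.

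RNA was sequenced from aged wild-type C57BL/6 mice whose drinking water held either vehicle (0.1% PEG) or CP2, a complex I inhibitor per the labels, in the same vehicle. The CP2 dose was 25 mg/kg/day, dosing began at an age of 21 months, and tissues of mice aged 26 months were profiled. Inguinal fat was represented by 4 female vehicle, 3 female CP2, 5 male vehicle and 4 male CP2 libraries, and a brain slice with cortex and hippocampus by 5 libraries for each sex and treatment. Reproductive history, the stage of the ovarian cycle and the exact place of each fat piece are not stated in the labels. Libraries are named by the s number in their titles. The labels do not state that replicate libraries are separate animals, so p-values measure only the spread between these libraries, which may be technical.

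The 2 main layers of mammary epithelium are an inner luminal layer and an outer basal, contractile layer. Luminal alveolar cells make milk in response to prolactin, which acts through its receptor, the kinase JAK2 and the transcription factor STAT5, with ELF5 as a further regulator of the alveolar programme. Milk protein genes are known for very high transcript levels during late pregnancy and lactation and for low levels in resting gland, whereas keratins 8 and 18 mark luminal cells at rest as well as in milk secretion.

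Fat libraries held 34.95 to 56.4 M (mega) counts each and brain libraries 37.4 to 53.0 M. The depot label was checked with 12 adipocyte markers, whose summed level was 35241 CPM (counts scaled to library size) or more in each fat library. Scd1, Car3 and Fabp4 led that list, with medians of 19944, 14179 and 12708 CPM over the 7 female libraries. In female against male fat, 3 of the 12 adipocyte genes were called lower and 0 higher. Over all 19769 genes tested, 1790 were called lower and 1923 higher. Other tissues varied between the fat pieces: 8 skeletal muscle genes summed to between 23.8 and 10161 CPM in females and 2.81 to 306 CPM in males, and 7 of 8 were called higher in females, led in level by Myh4, Tnnt3 and Acta1. Of 15 epidermal genes, 4 were tested and 1, Calml3, was called higher in females. The 15 summed to 42.5 CPM in female s463, 29.2 CPM in s443 and 11.55 CPM or less in each other fat library. Calml3, Krt10 and Krtdap led the list, reaching 25.4, 8.59 and 13.3 CPM in a female library and 2.86, 5.10 and 8.66 CPM in a male one. In s443 they were at 25.4, 2.12 and 0.529 CPM, so Calml3 made up most of its sum. The listed hair keratin genes Krt71, Krt28, Krt25 and Krt27 reached at most 0.397, 0.220, 0.0457 and 0.0220 CPM in a female library. Krt71 and Krt28 were highest in s443, and their highest male values were 0.0545 and 0.138 CPM. Krt25 and Krt27 reached a higher level in a male library than in any female one. These hair keratin genes were not among those tested. In bulk tissue, fewer cells of a type and less RNA per cell cannot be told apart.

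The casein genes Csn1s1, Csn2 and Csn3 lie together on chromosome 5 (mm10): Csn1s1 at 87666224 to 87682573, Csn2 at 87692624 to 87699421 and Csn3 at 87925579 to 87932665. That stretch of 266442 bases holds 10 genes in the table, 7 of them protein-coding. Wap is on chromosome 11 (6635482 to 6638637) and Lalba on chromosome 15 (98480400 to 98482683). Because the members of this family moved together in the libraries described next, the 250 bases upstream of the RefSeq start are shown for the milk genes with an entry in the promoter table (RefSeq, GRCm38.p6), 5′ to 3′ in the direction of transcription. Capitals mark matches to TTCNNNGAA, the form of site that STAT proteins bind, or to the same form with a longer middle, TTCNNNNGAA. Both motifs read the same on either strand, and no matches overlap.
Csn2, chr5:87699426-87699675, minus strand: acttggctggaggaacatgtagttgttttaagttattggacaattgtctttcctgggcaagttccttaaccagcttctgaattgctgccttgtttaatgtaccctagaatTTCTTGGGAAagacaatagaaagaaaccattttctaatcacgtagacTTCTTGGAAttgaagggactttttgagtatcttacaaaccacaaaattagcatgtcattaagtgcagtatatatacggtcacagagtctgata
Csn1s1, chr5:87665958-87666207, plus strand: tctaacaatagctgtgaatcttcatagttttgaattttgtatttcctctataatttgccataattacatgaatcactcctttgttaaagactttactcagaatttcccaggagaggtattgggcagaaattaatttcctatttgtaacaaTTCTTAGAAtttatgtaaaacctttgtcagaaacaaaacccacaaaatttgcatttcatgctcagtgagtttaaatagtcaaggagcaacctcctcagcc
Wap, chr11:6638650-6638899, minus strand: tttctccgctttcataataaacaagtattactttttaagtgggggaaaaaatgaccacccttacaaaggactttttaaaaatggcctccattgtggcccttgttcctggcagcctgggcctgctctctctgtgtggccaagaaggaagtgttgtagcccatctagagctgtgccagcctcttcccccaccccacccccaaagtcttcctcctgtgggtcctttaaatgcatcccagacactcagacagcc
Lalba, chr15:98482684-98482933, minus strand: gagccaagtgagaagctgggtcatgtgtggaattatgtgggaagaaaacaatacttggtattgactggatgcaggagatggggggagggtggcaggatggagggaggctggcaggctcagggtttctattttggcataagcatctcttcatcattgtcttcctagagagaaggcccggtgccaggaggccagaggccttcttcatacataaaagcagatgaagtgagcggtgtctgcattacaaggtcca

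The Csn2 window held the shorter motif once, beginning 93 bases before the start, and the longer one once, beginning 140 bases before it. The Csn1s1 window held the shorter motif once, beginning 100 bases before the start. Of the 10 members, 9 had an entry, and 2 of those, Csn2 and Csn1s1, held TTCNNNGAA, against 7.02% of all 32851 windows of 250 bases; TTCNNNNGAA was in 5.85% of them. The windows of Wap, Lalba, Elf5 and the epithelial genes had neither motif. These are matches of letters in a short window only.

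Milk protein transcripts differed by orders of magnitude among the female fat libraries. Csn2, which encodes β-casein, had 1578, 1639248, 928 and 13779 raw counts in female vehicle libraries s442, s443, s463 and s643, and 0, 0 and 4192 in female CP2 libraries s451, s454 and s664. Csn1s1, for the α-S1 casein, followed with 1027, 833090, 487 and 8813 counts in the vehicle libraries and 0, 1 and 3406 in the CP2 libraries, in the same order. Library s443 stood far above the rest, s643 and s664 came next, and the CP2 libraries s451 and s454 had next to none, so the CP2 values overlapped the vehicle values through s664.

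Csn3, for κ-casein, which coats and stabilises the casein micelle, had 6060, 369522, 5906 and 12329 counts in the female vehicle libraries and 548, 2707 and 10741 in the female CP2 libraries. It was the milk gene with the highest low end: all 7 female libraries held it. The span of Csn3 overlaps that of the gene 1700066N21Rik, and the kit does not record strand. Reads in any transcribed bases that the pair shares cannot be told apart, and how many fall there was not tested.

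Wap, for the whey acidic protein, had 36, 134172, 41 and 4083 counts in vehicle females and 0, 0 and 374 in CP2 females. Lalba, for α-lactalbumin, the regulatory subunit of lactose synthase, had 32, 16246, 34 and 246 counts against 12, 1 and 205. Both genes put s443 first and s643 second. Where a library had 0 counts, the upper limit of 3 counts was 0.0826 CPM in s451 and 0.0686 CPM in s454; such limits cover counting error only.

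**Figure D1:**
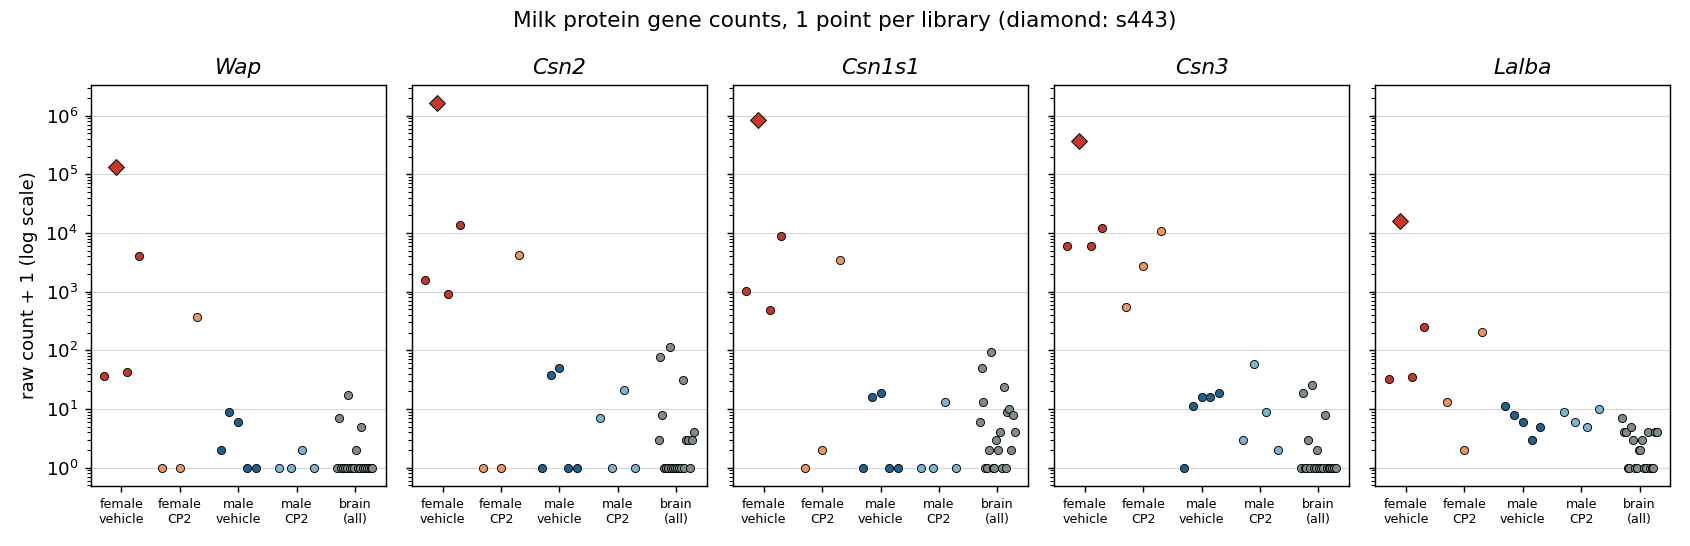
Raw counts plus 1 (log axis) of the 5 milk protein genes, 1 point per library, in the 4 fat groups and in all 20 brain libraries together; the diamond is female vehicle library s443. Csn2 is at 1639248 counts in s443 and at most 13779 in the other female libraries.

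In s443 the 5 milk protein genes took 6.60% of all counts. In the other 6 female libraries they took 0.00160% to 0.0953%. By raw count Csn2 ranked 1 among all genes in s443, Csn1s1 3, Csn3 7, Wap 16 and Lalba 294. On the CPM scale s443 exceeded the next female library, s643 in each case, by 106 times for Csn2, 84.2 times for Csn1s1, 58.9 times for Lalba, 29.3 times for Wap and 26.7 times for Csn3. The neighbouring Csn1s2a, another casein gene, had 1395842 counts in s443 and at most 15424 in the other females. Csn1s2b had 3885 counts there, and 2 other coding genes of the same stretch, Prr27 and Odam, had 0 and 6.

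Per unit of length, on the deposited FPKM scale, the order of the milk genes was not the same in every female library. Csn2 stood at 12659, Csn1s1 at 5093, Wap at 1151, Csn3 at 770 and Lalba at 192 FPKM in s443. In s643 the levels were 112 FPKM for Csn2 and 27.2 for Csn3, and in s664 they were 31.1 and 21.5. In s442 and s463 Csn2 was at 12.0 and 7.22 FPKM and Csn3 at 12.5 and 12.4, and in s451 and s454 Csn3 was at 1.34 and 5.33 with Csn2 at 0. Csn2 was thus above Csn3 in 3 of 7 female libraries and below it in 4. These are single libraries and their order was not tested.

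Elf5, the alveolar transcription factor gene, had 1449, 27412, 824 and 2002 counts in vehicle females and 250, 1032 and 2131 in CP2 females. It was 12.2 times as high in s443 as in the next library on the CPM scale, between the milk genes and the keratins. Relative to Krt18, Elf5 gave 2.41 counts per Krt18 count in s443 and 0.116 to 0.375 in the other females.

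The epithelial genes varied far less. Krt18, the partner of keratin 8 in the filaments of simple epithelia, had 5127, 11360, 4686 and 5341 counts in vehicle females and 1941, 8867 and 6489 in CP2 females. Krt8 had 2992, 9105, 3230 and 4266 counts against 1262, 6252 and 4499. Both were highest in s443 and lowest in s451, and s454, which had no Csn2 counts, was second highest for both.

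Epcam, an adhesion molecule of epithelial cells, had 3450, 9961, 3534 and 4830 counts in vehicle females and 1454, 4293 and 5996 in CP2 females. Krt5, a keratin of basal cells, had 1198, 4568, 1345 and 2439 against 341, 1551 and 2084. The lead of s443 over the next female library was 1.40 times for Krt8, 1.23 times for Krt18, 1.84 times for Epcam and 1.67 times for Krt5 on the CPM scale.

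**Figure D2:**
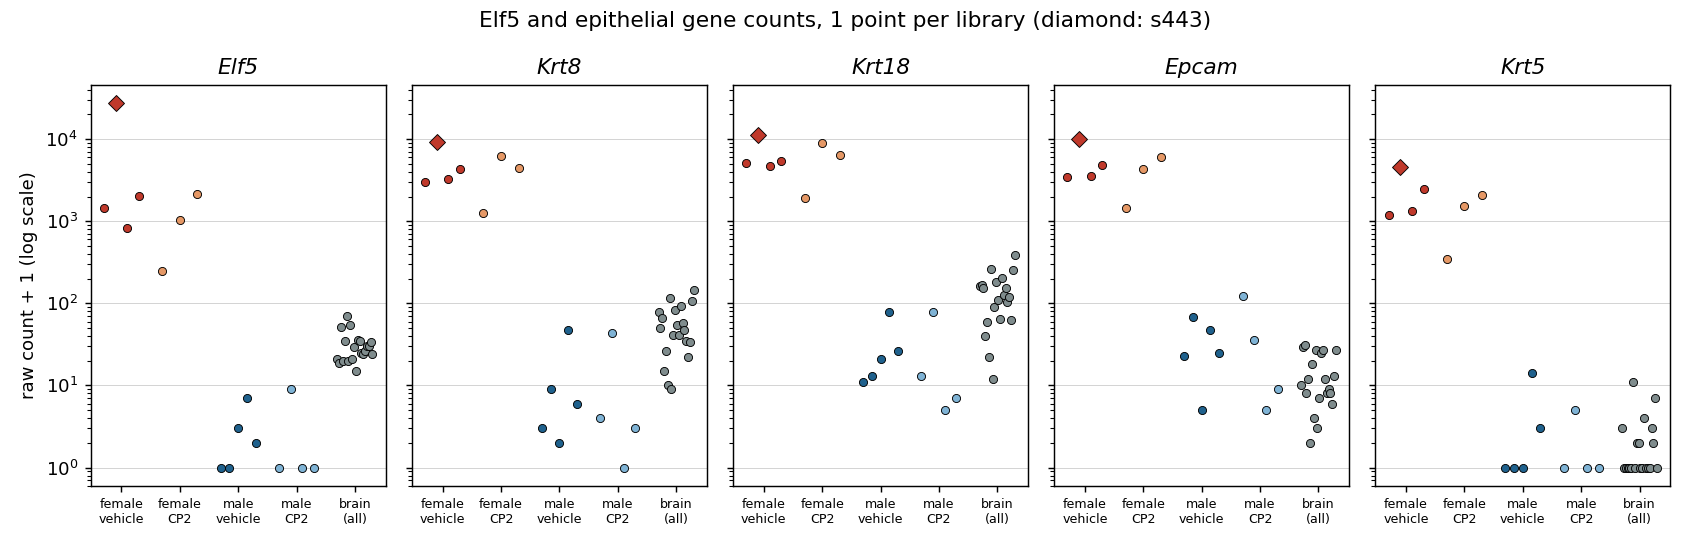
Raw counts plus 1 (log axis) of Elf5, Krt8, Krt18, Epcam and Krt5, 1 point per library, in the 4 fat groups and in all 20 brain libraries together; the diamond is s443. Krt18 runs from 1941 to 11360 counts in the female fat libraries and from 4 to 78 in the male ones.

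The ratio of milk to keratin transcripts spread the female libraries widely. Csn2 counts per Krt18 count were 144 in s443, 2.58 in s643, 0.646 in s664, 0.308 in s442, 0.198 in s463 and 0 in s451 and s454. Over the 7 female libraries the log2 levels of Csn2 and Krt18 had a Pearson r of 0.519, and 0.186 without s443. Epcam and Krt5 had r = 0.982, and 0.976 without s443. These coefficients describe 7 libraries that also share their dissection and depth.

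**Figure D3:**
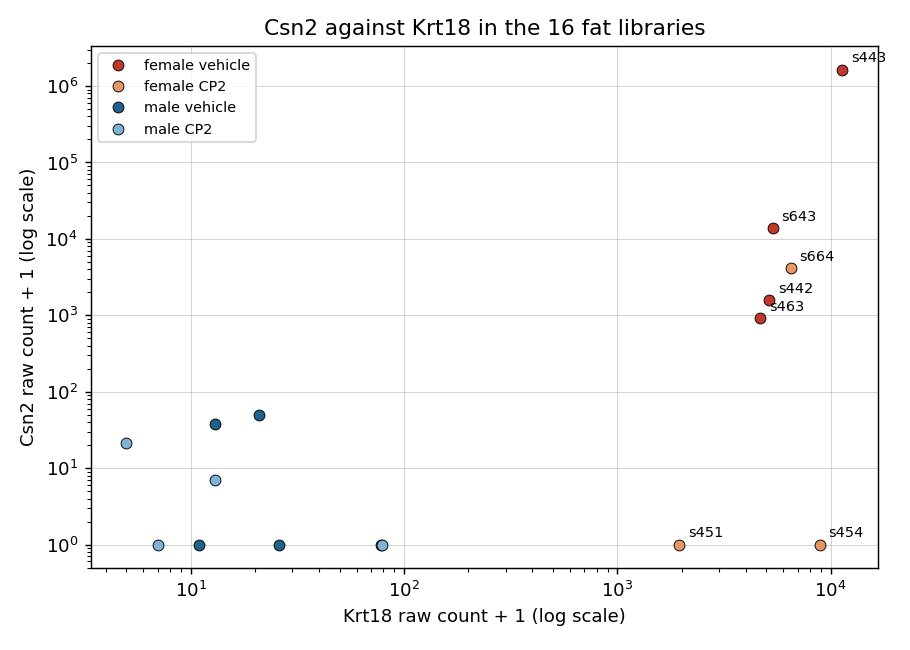
Csn2 against Krt18 raw counts (each plus 1, both axes log) in the 16 fat libraries, coloured by sex and treatment, with the female libraries named. Library s454 lies second highest for Krt18 (8867 counts) with Csn2 at 0, and s443 lies highest for both.

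Of 15705 genes compared over the 7 female libraries, the member Csn1s1 was most like Csn2 (r = 0.999). With members left aside, those most like Csn2 were Csn1s2a (r = 0.998), Dsel (0.991), Gemin8 (0.990), Ndp (0.984) and Pycr1 (0.984). Over the 9 male libraries the same coefficients with Csn2 were 0.964 for Csn1s2a, 0.0589 for Dsel, 0.497 for Gemin8, -0.0392 for Ndp and 0.565 for Pycr1. The swing in level was not alike: Csn1s2a was at 30760 CPM in s443 and at most 381 CPM in the other females, and Dsel was at 38.8 CPM in s443 and 22.0 to 30.6 CPM in the other females. Gemin8 was at 5.58 CPM in s443 and 4.21 to 5.09 CPM in the other females. Those most like Epcam were Gata3 (0.995), Grhl2 (0.992), Cldn7 (0.992), Tmem30b (0.989) and Plekha6 (0.987), with 0.680, 0.602, 0.401, -0.117 and -0.105 in males. Those most like Krt5 were Col6a1 (0.994), Polr3d (0.991), Col6a2 (0.990), Ifnlr1 (0.990) and 2610307P16Rik (0.988), with 0.303, 0.0501, 0.198, -0.441 and -0.232 in males. Each set holds the highest coefficients among 15705 genes over 7 libraries, and that choice alone can give values this high.

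All 10 members were called higher in female than in male fat by edgeR's quasi-likelihood test with Benjamini-Hochberg adjustment over 19769 genes (threshold 0.05), where 9.73% of all genes were called higher in females. Members and lists were chosen with earlier results of these data known, and genes high in females alone can pass the filter through them. The share of members or list genes called is therefore not independent support for a sex difference. For 6 of 10, namely Csn3, Elf5, Krt8, Krt18, Epcam and Krt5, every female library lay above every male library, which held for 2.79% of all genes. Wap, Csn2, Csn1s1 and Lalba overlapped the male range through the CP2 female s454, and all but Lalba through s451 as well.

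In the 9 male libraries the milk genes were at or near 0. Csn2 had 37 and 49 counts in vehicle s551 and s552 and 0 in s540, s553 and s621, and 6 and 20 in CP2 s530 and s571 and 0 in s562 and s612. Csn1s1 was at 0 in 6 of 9 and at most 18, Wap at 0 in 5 of 9 and at most 8, and Lalba at 2 to 10. Csn3 had 0 to 18 counts in the vehicle libraries and 58, 2, 1 and 8 in CP2 s562, s530, s612 and s571. The fitted log2 difference, female minus male, was 10.98 ± 2.32 for Csn2 (SE; adjusted p = 0.00559), 11.56 ± 2.27 for Csn1s1, 10.84 ± 2.15 for Wap, 10.41 ± 1.37 for Csn3 and 6.36 ± 1.37 for Lalba. These fits average over groups in which some libraries are at 0, and 4 of the calls rested on the CP2 female s664: without it, Wap, Csn2, Csn1s1 and Lalba were no longer called (adjusted p = 0.99988, 0.998, 0.641 and 0.0669).

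Krt18 and Epcam were low but present in all 9 male libraries and Krt8 in 8, whereas Krt5 was at 0 in 6 and Elf5 at 0 in 5. Krt18 had 10, 12, 20, 77 and 25 counts in vehicle s540, s551, s552, s553 and s621 and 12, 78, 4 and 6 in CP2 s530, s562, s571 and s612. Krt8 reached 47 in s553 and 43 in s562 and was at 8 or fewer in the other males, and Krt5 reached 13 and 4 in the same pair and 2 elsewhere. Epcam went its own way, with its highest male count, 121, in s530 and 68 in s551. The log2 differences were 7.78 ± 0.70 for Krt18 (adjusted p = 7.4e-06), 8.42 ± 0.89 for Krt8, 7.02 ± 0.65 for Epcam, 9.85 ± 0.86 for Krt5 and 10.46 ± 1.11 for Elf5, whose male counts ran from 0 to 8. Each of these 5 kept its call when any 1 fat library was left out.

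The rest of the epithelium's genes went with the members by sex. Of 22 other luminal genes, 22 were called higher in females, with a median log2 difference of 6.79 against 0.01 over all genes tested. Cd24a, Kit and Ly6d had the highest mean levels, with medians of 150, 84.4 and 94.3 CPM in females and 16.1, 19.996 and 7.90 CPM in males. By adjusted p the leading luminal genes were Elf3, Areg, Prr15l, Krt7, Grhl2, Cldn7, Krt19 and Esrp1, with log2 differences of 8.46, 8.50, 7.79, 6.88, 6.74, 7.88, 6.83 and 6.93. Of 16 other basal genes, 11 were called higher and 0 lower (median 2.13). Krt14, the partner of keratin 5, was 9.97 ± 0.76 higher on the log2 scale (adjusted p = 2.12e-06), and the contractile genes Cnn1 and Acta2 5.29 ± 0.39 and 2.55 ± 0.43. Igfbp5, Acta2 and Tagln, the basal genes with the highest means, are also made by stromal and vascular cells; their female medians were 517, 438 and 159 CPM.

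Of 20 other milk and secretory genes, 19 were tested, 11 were called higher in females and 0 lower (median 3.93). Btn1a1, for the butyrophilin of the milk fat globule, was higher by 11.67 ± 1.02 and Wfdc18 by 9.67 ± 1.01, and both ran through all 7 females: Btn1a1 was at 628 CPM in s443 and 13.2 to 80.0 CPM in the others. Trf, Csn1s2a and Glycam1 had the highest means; Trf, which adipose tissue also makes, had medians of 2279 CPM in females and 3889 CPM in males. Glycam1, a mucin of milk that high endothelial venules of lymph nodes also make, was at 9851 CPM in s443 and 6.75 to 636 CPM in the other females. It made up most of the summed lymph node level of 9917 CPM in s443, where the B cell genes Ms4a1 and Cd79a were at 12.4 and 9.06 CPM, the lowest of the 7 females. Of the 14 lymph node genes, 1, Glycam1 itself, was called higher in females, and of 7 plasma cell genes 1, Sdc1, which epithelium also makes. Over all genes tested, 9.73% were called higher.

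Receptors and signalling genes of the milk programme were mixed. Of 19 listed, 5 were called higher in females, namely Prlr, Pgr, Gata3, Areg and Wnt4, and 1 lower, the glucocorticoid receptor gene Nr3c1. The prolactin receptor gene Prlr was 3.05 ± 0.32 higher in females (adjusted p = 2.89e-05), with a female median of 154 CPM and a male median of 15.99 CPM. In s443 it was at 111 CPM, within the female range of 97.5 to 276 CPM. Of the 19 signalling genes, s443 was the highest female library for 5 (Nfib, Stat5a, Id2, Cish and Gata3, named after their values were seen), the lowest for 2 (Esr1 and Jak2), and in between for 12. Of 6 mesothelial genes tested, 4 were called higher in females, among them Msln; the 7 listed genes summed to at most 36.5 CPM in a female and 79.8 CPM in a male library. Of 7 sebaceous genes, 1 was called higher (Awat2) and 1 lower (Mogat1), against 1923 higher and 1790 lower of all 19769 genes. The part of these tissues in the members' values was not tested.

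Between CP2 and vehicle in female fat, 0 of 10 members were called, and 0% of all genes tested were; DESeq2 called 2 genes, with 0 members among the 5 that it gave an adjusted p. All 10 fitted differences were negative, and 6 had an unadjusted p under 0.05 in edgeR, where 0.966% of all genes were lower at that level. These 6 were the milk genes and Elf5, with log2 differences, CP2 minus vehicle, of -8.36 ± 3.35 for Csn2, -7.69 ± 3.06 for Csn1s1, -4.49 ± 1.69 for Csn3, -8.25 ± 2.75 for Wap, -5.94 ± 2.08 for Lalba and -2.86 ± 1.17 for Elf5 (adjusted p = 0.99985 for each). The epithelial genes stood at -0.30 ± 0.98 for Krt8, -0.21 ± 0.80 for Krt18, -0.51 ± 0.78 for Epcam and -0.91 ± 0.86 for Krt5. No member had CP2 and vehicle values that did not overlap, which held in the lower direction for 1.55% of all genes.

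Those values turned on s443, and with the L number of the titles as a factor 3 of the 6 changed sign, to 2.18 for Wap, 0.21 for Csn2 and 0.53 for Csn1s1. The female CP2 libraries s451, s454 and s664 had L numbers 2, 1 and 1. The female vehicle libraries s442, s443, s463 and s643 had 1, 4, 3 and 3. Only L number 1 held both treatments, so the fit with this factor can hardly separate it from CP2. Without s443 the log2 differences were -2.29 for Csn2, -1.94 for Csn1s1, -0.98 for Csn3, -3.83 for Wap, -0.79 for Lalba, -0.46 for Elf5, 0.15 for Krt8 and 0.16 for Krt18, the last 2 with the sign turned. Without CP2 library s664 they were -21.6 for Csn2 and -18.0 for Wap, because both remaining CP2 libraries were at 0. Of the 19 other milk genes tested, 0 were called and 0 had a positive difference (median -2.71, against -0.05 over all genes). Of the 22 luminal genes 0 were called and 7 were positive (median -0.29), and of the 16 basal genes 0 were called and 0 were positive (median -1.05). The 19 signalling genes had 0 calls and 9 positive differences (median -0.11).

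**Figure D4:**
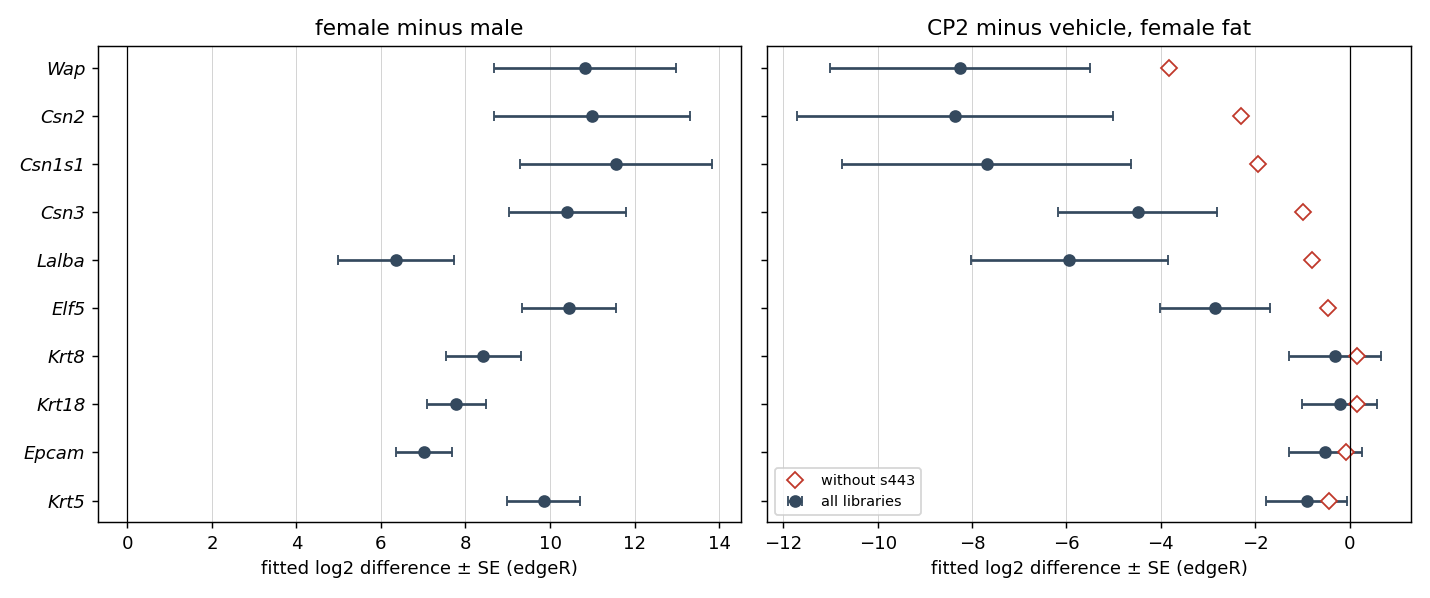
Fitted log2 differences (points) with standard errors (bars) for the 10 members, female minus male fat on the left and CP2 minus vehicle in female fat on the right; open diamonds give the right-hand values without s443. Left-hand values run from 6.36 for Lalba to 11.56 for Csn1s1, and the right-hand Csn2 value moves from -8.36 to -2.29.

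In male fat 0 of 10 members were called between CP2 and vehicle, with 0.0101% of all genes called in edgeR. At an unadjusted p under 0.05 there were 0 members, against 14.4% of all genes. Median male counts were 0 for Wap, Csn2, Csn1s1, Elf5 and Krt5, 3 for Krt8 and 5 to 24 for the others. A small p was hardly attainable at such counts, so these shares do not show that CP2 left the members unchanged. DESeq2 called 481 genes, with 0 members among the 5 that it gave an adjusted p. Male differences were 0.03 ± 1.13 for Krt8, -0.10 ± 0.82 for Krt18, 0.12 ± 0.76 for Epcam and -1.44 ± 1.46 for Krt5. The male milk genes were at or near 0, which leaves their differences with SEs of 1.55 to 5.26. The female effect minus the male effect was called for 0 of 10 members and 0% of all genes; 2 members, Csn3 (-5.19 ± 2.19) and Lalba (-6.09 ± 2.70), had an unadjusted p under 0.05, against 3.89% of all genes. Both rested on s443, without which they were -1.68 and -0.92. DESeq2 called 3 genes here, with 0 members among 5.

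Brain was the tissue without mammary gland. Over its 20 libraries the median count was 0 for Wap, Csn2, Csn3 and Krt5, 2.5 for Csn1s1, 1 for Lalba, 10 for Epcam, 26.5 for Elf5, 47.5 for Krt8 and 120.5 for Krt18. The last 3 were above their male fat medians of 0, 3 and 12. Averaged over sex and treatment, 9 of 10 members were called higher in fat than in brain, where 46% of all genes were. Epcam differed by 5.08 ± 0.35 and Csn3 by 8.09 ± 0.82, Krt18 by 1.66 ± 0.37, and Wap was not called (5.39 ± 4.63, adjusted p = 0.271). With the s number as a replicate block, in 16 libraries, 7 members were called, and Krt8, Krt18 (0.45) and Elf5 were not.

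The low Csn2 and Csn1s1 counts outside female fat went with the L number in the titles, from 1 to 6, whose meaning is not stated. Library s443 has L number 4. Csn2 had 20 to 76 counts in the 5 male fat and brain libraries with that number, and 0 to 7 in 23 of the 24 with other numbers; the exception was the brain CP2 male s581, with L number 2, at 111. The counts in the 5 were 0.00122% to 0.00464% of the s443 count. The same libraries had 12 to 49 counts of Csn1s1. With other numbers Csn1s1 had 0 in male fat and 0 to 12 in brain, apart from 94 in s581. Wap had 1 to 8 counts in male fat and 4 to 6 in brain with L number 4. With other numbers it had 0 or 1, apart from 16 in s581. In brain Csn3 had 7 to 18 counts with L number 4 and 0 to 2 with others, apart from 25 in s581. In male fat Csn3, Lalba and Krt18 did not follow. Csn3 had 8 to 15 counts in the male fat libraries with L number 4 and 15 and 58 in those with L number 2, and Lalba had 4 to 7 with L number 4 and 4 to 10 with L number 3. For Krt18, the 3 male fat libraries with L number 4 had 4 to 20 counts, and the highest male values were in the 2 with L number 2. Whether these counts came from the tissue of each library was not tested. Without the libraries of L number 4, 8 of 10 members were still called between the sexes, Csn1s1 (adjusted p = 0.0594) and Lalba (0.0518) being the others.

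**Figure D5:**
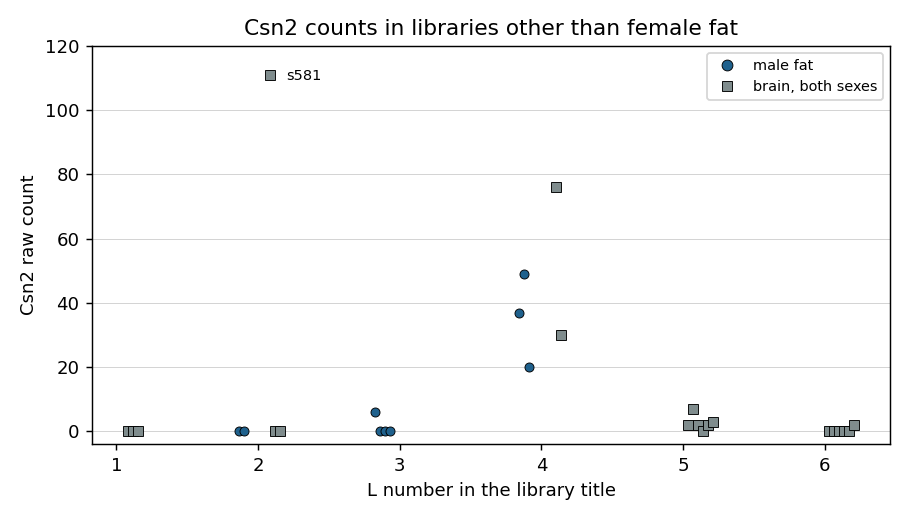
Csn2 raw counts (linear axis) in the 9 male fat and 20 brain libraries by the L number in the library title; circles are fat and squares brain. The 5 libraries with L number 4 lie between 20 and 76 counts, and s581, with L number 2, lies at 111.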

How the data were processed

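The authors deposited 1 table with whole-number counts and FPKM values per gene for 36 libraries. These came from STAR 2.6.1c, featureCounts (Subread) and bcl2fastq on mm10, per the submitters' processing notes; annotation release and strand setting: not given in the sources used here. Libraries came from a TruSeq kit without strand information, per the labels' protocols. The counts as deposited were tested with edgeR 4.0.16 (R 4.3.3): filterByExpr, TMM, robust quasi-likelihood, group means over 4 fat groups (19769 genes, 12 residual degrees of freedom) or 8 groups of both tissues (22012 genes). P-values were adjusted by Benjamini-Hochberg across every tested gene. SEs come from the quasi-likelihood F statistic, and CPM use TMM sizes. The FPKM deposited by the authors served only to compare genes within a library. DESeq2 1.42.0 was an alternative. Named genes are the 10 members, the 3 highest of each list and up to 8 called list genes. Named outside that rule were the hair keratin genes, Ms4a1, Cd79a and the signalling genes ranked by s443. Genes in or overlapping the casein stretch and those most like Csn2, Epcam or Krt5 were named as well. Members and lists were chosen with earlier results of these data known. On simulated data with log2 changes of 2, the fit recovered 80% for sex, 62.8% for CP2 in females, 64.5% for CP2 in males and 38.1% for their difference. The changed genes were drawn at random from all genes tested, so these rates do not carry over to the members. For CP2 in females the SEs of the milk genes and Elf5 were 1.17 to 3.35.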

Additional observations from a re-analysis of the deposited data

Results flagged for a closer look

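In 16 of 30 tests of a member within a fat group of 4 or 5 libraries, 1 library lay farther from the rest than Dixon's 95% critical value (0.829 for 4 libraries, 0.71 for 5). Chance gives about 1 in 20 for independent, normally distributed values, and skewed values such as these CPM, taken without a log scale, can pass more often. That rate does not apply to 4 of the 16, in which every other library was at 0 (Wap and Csn1s1 in s571, Elf5 and Krt5 in s562), and the members moved together, so the tests are not independent. In female vehicle fat it was s443 each time, with 36124 CPM for Csn2, 18359 for Csn1s1, 8143 for Csn3, 2957 for Wap, 358 for Lalba and 604 for Elf5. The epithelial genes Krt8, Krt18, Epcam and Krt5 were also highest in s443, without passing that limit.

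In male vehicle fat it was s553, with 1.66 CPM for Krt18, 1.01 for Krt8 and 0.280 for Krt5. In male CP2 fat it was s562, with 2.0002 CPM for Krt18, 1.10 for Krt8, 0.103 for Krt5, 0.205 for Elf5 and 1.49 for Csn3. These 2 males share L number 2, and the part of the L number in their values was not tested. The male CP2 library s571, with L number 4, stood apart for Csn1s1 at 0.331 CPM and for Wap at 0.0276 CPM, which is 1 count.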

How the results depend on the processing

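Between the sexes 10 members were called with 5 alternatives (DESeq2 size factors, library totals, both other filters, non-robust dispersion) and with vehicle libraries only, 9 with the L number as a factor, 6 with CP2 libraries only and 5 with DESeq2's own test, which gave an adjusted p for 5. Leaving out 1 library at a time gave 6 (without s664) to 10. For both CP2 comparisons and their difference the count stayed at 0 in each alternative. No female-against-male value changed sign.

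In female fat only L number 1 held both treatments, so a fit with the L number can hardly separate it from CP2 there. With the L number as a factor, CP2 minus vehicle in females turned to 2.18 for Wap, 0.21 for Csn2 and 0.53 for Csn1s1. In males it turned to 0.62 for Csn2 and -0.24 for Krt8, and the difference between the sexes to 4.27 for Wap, 0.68 for Csn1s1 and -0.82 for Krt5. Without the libraries of L number 4, an alternative chosen after seeing the data, it turned in females to 0.16 for Krt8 and 0.17 for Krt18, in males to 3.95 for Csn2 and -0.13 for Krt8, and in the difference to 0.29 for Krt8 and 0.36 for Krt18. Male Krt8 was -0.072 with library totals and -0.013 with the stricter filter. The cause was not tested; each main value was smaller than its SE or rested on s443. Library totals moved the median of all genes from 0.04 to -0.08 in male CP2 and from -0.07 to 0.06 in the difference.

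Leaving out 1 library gave ranges of -0.86 to 0.15 for Krt8 and -0.74 to 0.16 for Krt18 in females. In males they were -1.64 to 1.14 for Csn3, -0.11 to 0.54 for Lalba, -3.98 to 1.28 for Elf5, -2.92 to 1.60 for Krt8, -2.06 to 0.63 for Krt18, -0.90 to 0.57 for Epcam and -4.66 to 0.84 for Krt5. For the difference they were -4.13 to 1.09 for Elf5, -1.91 to 2.601 for Krt8, -0.84 to 1.84 for Krt18, -1.10 to 0.37 for Epcam and -1.75 to 3.74 for Krt5.

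Fat against brain gave 6 to 9 calls without 1 library and 6 without L number 4. Titles share 8 s numbers between the tissues. Same-numbered libraries correlated at -0.0826 to 0.139, and 3 of the 8 fat libraries were closest to their own number. Brain and fat of 1 animal need not vary together, so this cannot decide whether a shared number marks 1 animal. With the number as a replicate block 7 members were called, against 10 in the same 16 libraries without the block. Those not called with it were Krt8 (0.85), Krt18 (0.45) and Elf5, which turned to -0.97.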
